A study of Mus musculus with 2 samples.

Results

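Erythroid cells were examined in pituitaries of C57BL/6 mice (an inbred strain, males only) by droplet-based single-cell RNA sequencing. Barcodes of both libraries were kept with at least 2000 UMIs (molecular tags, so that PCR copies of a transcript count once), at least 500 detected genes and at most 15% of UMIs from mitochondrial genes. The erythroid barcodes were chosen by their measured globin share: a kept barcode was called erythroid when Hbb-bs, Hbb-bt, Hba-a1 and Hba-a2, the adult haemoglobin genes, together held at least 10% of its UMIs. This gave 119 erythroid barcodes of 18993 kept ones, 51 old ones of 9783 and 68 young ones of 9210. The old library came from mice of 20 months and the young library from mice of 2 months, with 10 glands pooled into 1 library at each age and no genetic change or treatment stated in the labels. Cells were dissociated enzymatically, and the protocol in the labels includes a red blood cell lysis step before loading, so these barcodes are what remained after that step. With 1 library per age, no difference between ages could be tested, and every interval given is at 95% and covers only the error of counting.

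Red blood cells form in the bone marrow of adult mice. Erythroblasts fill with haemoglobin under the control of transcription factors such as GATA1 and KLF1, expel the nucleus, and circulate as reticulocytes that still carry messenger RNA and clear their organelles before they become erythrocytes. Adult haemoglobin joins 2 alpha chains with 2 beta chains, each holding a haem group made from glycine, succinyl-CoA and iron, and the first step of that synthesis in erythroid cells is made by the enzyme ALAS2. The pituitary is not a site of red cell formation, but it is densely supplied by blood vessels, so that blood cells are carried into a suspension of the gland.

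The 4 globin genes chose these barcodes, and their upstream sequences are shown because the globins are the genes that define the population, with Alas2 beside them as the erythroid gene that the choice did not use. The sequences are the 120 bases before the RefSeq start of each gene in GRCm38.p6, an older build than the GRCm39 named in the submitters' processing notes. They lie at chr7:103827929-103828048 on the minus strand for Hbb-bs, chr7:103813924-103814043 on the minus strand for Hbb-bt, chr11:32283552-32283671 on the plus strand for Hba-a1, chr11:32296372-32296491 on the plus strand for Hba-a2 and chrX:150547297-150547416 on the plus strand for Alas2. Capitals mark matches on either strand to CACCC, the letters bound by KLF1 in globin promoters, CCAAT, the TATA words TATAAA and ATATAA, and GATA words, in which GATA follows an A or T and precedes an A or G.
Hbb-bs: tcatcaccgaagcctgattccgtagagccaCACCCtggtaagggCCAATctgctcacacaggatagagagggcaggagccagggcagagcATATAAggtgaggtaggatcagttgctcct
Hbb-bt: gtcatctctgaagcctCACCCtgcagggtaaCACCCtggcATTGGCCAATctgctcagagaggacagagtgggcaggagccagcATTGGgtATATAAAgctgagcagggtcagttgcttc
Hba-a1: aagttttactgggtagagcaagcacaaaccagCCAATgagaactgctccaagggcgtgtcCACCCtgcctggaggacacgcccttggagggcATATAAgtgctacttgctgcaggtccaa
Hba-a2: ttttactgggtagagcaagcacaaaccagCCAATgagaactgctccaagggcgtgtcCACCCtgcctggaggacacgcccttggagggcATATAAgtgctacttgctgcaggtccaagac
Alas2: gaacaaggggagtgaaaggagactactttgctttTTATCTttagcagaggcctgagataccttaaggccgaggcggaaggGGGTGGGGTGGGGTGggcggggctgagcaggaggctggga
Each of the 4 globin windows held at least 1 match to each of the first 3 of these motifs, a combination found in 0.539% of 32817 RefSeq windows of the same length and position. In Hbb-bs the CACCC match began at position -90, the CCAAT match at -76 and the TATA word at -30, counted back from the start. In the Hba-a1 window the order was different, with CCAAT beginning at -88, CACCC at -60 and the TATA word at -28. Hbb-bt carried 2 CACCC matches and 3 CCAAT matches, 2 of them on the other strand, and its TATA words overlap each other. The Alas2 window had no CCAAT or TATA word, a GATA word on the other strand at -86 and 3 CACCC matches on the other strand between -40 and -26. Taken one at a time, CACCC occurred in 31.7% of all windows, CCAAT in 21.3%, a TATA word in 8.75% and a GATA word in 12.8%, and a match is a stretch of letters only.

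The label was checked against genes that the choice did not use, and these genes were present. Alas2 had at least 1 UMI in 50 of 51 old erythroid barcodes (98.0%), against 1.72% of the other kept barcodes of that library, and in 63 of 68 young ones (92.6%), against 0.580% of the others. After every barcode was thinned to 2000 UMIs, Alas2 was still found in 80.4% of old erythroid barcodes and 1.03% of the others, and in 75.0% of young erythroid barcodes and 0.153% of the others. The shares in the other barcodes are taken as the background. Of 17 non-globin erythroid markers, at least 3 were detected in 49 of 51 old erythroid barcodes, against 3.46% of the other barcodes, and in 63 of 68 young ones, against 8.41% of the others. The median numbers of UMIs were 4640 in old erythroid barcodes and 3236.5 in the other old ones, and 5757.5 in young erythroid barcodes and 6606 in the other young ones.

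The depth and the quality of the 2 libraries differed in ways that touch these cells. The old library held 138427393 UMIs and the young one 154510099, and 31 kept barcode sequences occurred in both libraries, none of them erythroid. Globin RNA was also free in the suspension, since it made 0.719% of UMIs in old and 0.597% in young empty droplets, here the barcodes with 100 UMIs or fewer. In the other kept barcodes it made 0.292% of UMIs in the old and 0.0394% in the young library. Of the old kept barcodes, 6133 fell into a cluster whose profile correlated with that of empty droplets at 0.95 or more, against 1 of the young ones. For this step the empty droplets were barcodes of 10 to 100 UMIs, summed over both libraries. Empty droplets of 100 UMIs or fewer held 26933036 UMIs in the old and 4237840 in the young library. Young barcodes were thus not compared with a profile of their own library alone. The part of this cluster in the results below was not tested, and 1 old and 0 young erythroid barcodes lay in it.

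Erythroid barcodes spanned a wide range of globin content, and the 2 libraries filled that range differently. The median globin share was 65.6% of UMIs in the old library, with the lowest at 11.1% and the highest at 80.6%. In the young library the median was 34.9%, the lowest 10.8% and the highest 75.2%. A share of 60% or more was found in 30 of 51 old barcodes (58.8%) and 6 of 68 young ones (8.82%), and a share of 10% to 30% in 6 old (11.8%) and 29 young ones (42.6%). The share chose the barcodes, so these values describe them and were not tested. Just inside the limit stood an old barcode at 11.05% and a young one at 10.75%, and just outside it an old one at 7.90% and a young one at 9.73%. The old library had 2 kept barcodes at 5% to 10% globin and the young library had 18, so the limit cut through a sparse but continuous range in the young library.

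Malat1, a long noncoding RNA held in the nucleus, separated the barcodes further. It made under 0.5% of UMIs in 38 of 51 old erythroid barcodes (74.5%, interval 60.4% to 85.7%) and in 24 of 68 young ones (35.3%, 24.1% to 47.8%). Among these Malat1-poor barcodes the median globin share was 68.3% in the old and 51.9% in the young library, and the median number of detected genes was 575.5 in the old and 550 in the young library. The other barcodes, 13 old and 44 young, had a median globin share of 30.4% in the old and 28.2% in the young library. They had more detected genes, with medians of 2006 in the old and 1818 in the young library, and more mitochondrial RNA, with medians of 3.67% in the old and 5.63% in the young library. Across barcodes of 1 library, the globin share and the Malat1 share ran against each other, with Spearman's rho of -0.66 over 51 old and -0.57 over 68 young barcodes. Both are shares of the same total, so that a high value of one lowers the other. The mitochondrial share is taken over that total as well.

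**Figure D1:**
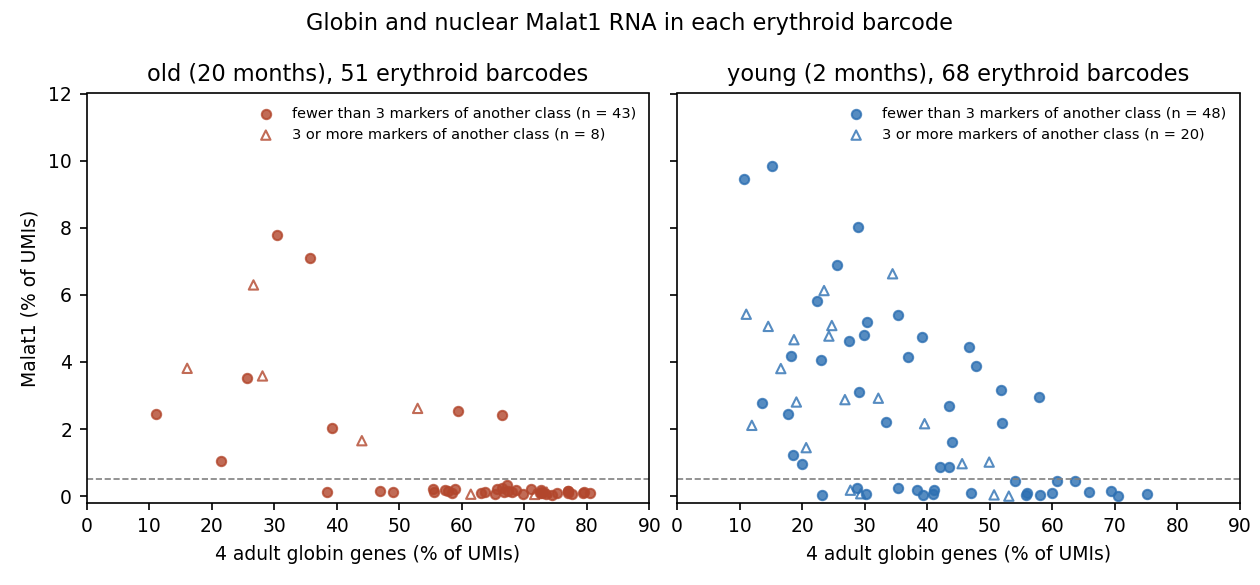
Each point is 1 erythroid barcode, old library on the left and young library on the right, with the share of UMIs from the 4 adult globin genes on the x axis and from Malat1 on the y axis, both in percent. The dashed line marks 0.5% Malat1, with 38 of 51 old and 24 of 68 young barcodes below it. Open triangles mark the 8 old and 20 young barcodes with 3 or more markers of another non-endocrine cell class. Endocrine markers were not counted for the triangles.

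Fewer different genes were detected in erythroid barcodes than in other cells at equal depth, a difference that the choice by globin share favours. UMIs taken up by the 4 globin genes leave fewer for other genes. After thinning to 2000 UMIs the median was 359 genes in old erythroid barcodes and 760 in the other old ones, and 609 in young erythroid barcodes and 876 in the other young ones. Mitochondrial RNA, which falls as reticulocytes clear their mitochondria, had a median of 0.749% of UMIs in old erythroid barcodes and 4.59% in the other old ones. In the young library the medians were 3.85% in erythroid barcodes and 4.33% in the others. These shares are of all UMIs, so that a high globin share lowers them, and the part of mitochondrial clearance was not tested. Hormone RNA was present throughout: Gh, growth hormone, had a median of 5.36% of UMIs in old and 10.3% in young erythroid barcodes. Gh and the other 3 somatotroph markers together made 7.64% of UMIs in old erythroid barcodes and 28.9% in old empty droplets, and 11.0% in young erythroid barcodes and 40.5% in young empty droplets.

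Among the globins, the beta chain came mostly from Hbb-bs, the major adult beta gene of this strain. Hbb-bs had 84790 UMIs in old and 69016 in young erythroid barcodes, and Hbb-bt, its neighbouring copy, had 16435 in old and 15742 in young ones. Hbb-bs therefore held 83.8% of beta UMIs in the old library (interval 83.5% to 84.0%) and 81.4% in the young library (81.2% to 81.7%). The alpha chain was split more evenly: Hba-a1 had 31975 UMIs in old and 27202 in young erythroid barcodes, and Hba-a2 had 23058 in old and 20585 in young ones. Hba-a1 held 58.1% of alpha UMIs in the old and 56.9% in the young library. Beta UMIs exceeded alpha UMIs 1.84 times in the old and 1.77 times in the young library, counted from transcript ends and so without scaling to length.

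These splits are between near-identical copies. The coding sequences of Hbb-bs and Hbb-bt matched at 443 of 444 bases and those of Hba-a1 and Hba-a2 at 428 of 429 bases in the GENCODE vM21 transcripts. The last 250 bases, near which these 3' libraries are read, matched at 83.0% of aligned positions for the beta pair and 87.6% for the alpha pair, where 1 substitution was found and the rest were gaps. The split between Hba-a1 and Hba-a2 is therefore uncertain, and neither split can be told apart from how the authors' software placed shared reads. Over single barcodes, Hbb-bs held between 74.2% and 97.3% of beta UMIs in the old library and between 72.5% and 97.2% in the young library, so the barcodes of both ages overlapped over nearly the whole range. The beta over alpha ratio ran from 1.43 to 2.85 with a median of 1.84 in old barcodes, and from 1.15 to 2.21 with a median of 1.77 in young ones.

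The same splits were measured where globin RNA lay outside the erythroid barcodes. In empty droplets Hbb-bs held 84.5% of beta UMIs in the old and 80.2% in the young library, and beta exceeded alpha 2.04 times in the old and 1.70 times in the young library. In the other kept barcodes the Hbb-bs share was 84.6% in the old and 84.2% in the young library. Empty droplets therefore showed the same order of the libraries as the erythroid barcodes, and the part of free RNA in that order was not tested.

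**Figure D2:**
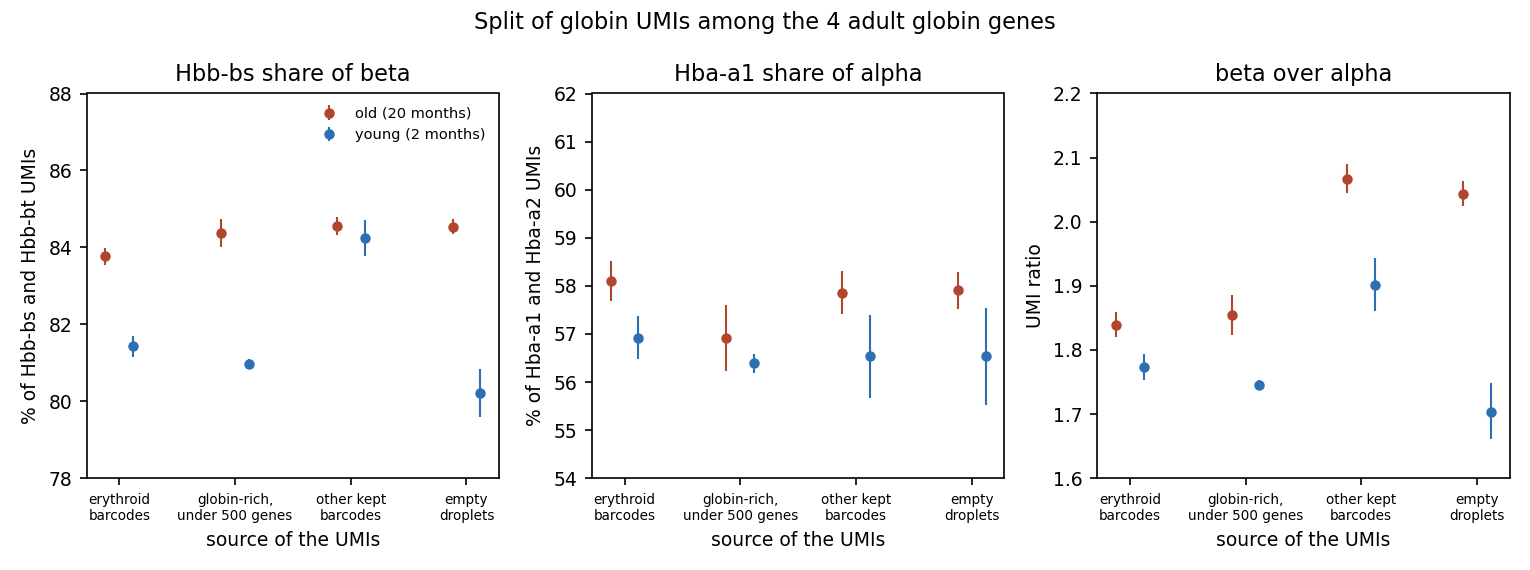
Points are the share of Hbb-bs among beta UMIs, the share of Hba-a1 among alpha UMIs and the ratio of beta to alpha UMIs, each from summed UMIs of 4 sources per library, old to the left of young. Bars are 95% counting intervals, and the y axes do not start at 0. Old values lie above young values in each pair for the Hbb-bs share, with 83.8% against 81.4% in erythroid barcodes and 84.5% against 80.2% in empty droplets. In the other kept barcodes the pair is close, at 84.6% against 84.2%, and the intervals overlap.

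The embryonic and minor globins were nearly absent. Hbb-y and Hba-x, the embryonic beta-like and alpha-like genes, had 0 UMIs in erythroid barcodes of both libraries, which allows up to 3 UMIs in each. Hbb-bh1, another embryonic gene, had 1 UMI in the old and 1 in the young library. The theta-like gene Hbq1a had 12 UMIs in 8 old barcodes and 4 UMIs in 4 young ones, and Hbq1b had 3 UMIs in 3 old and 9 UMIs in 7 young ones.

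Outside the globins, 21 of 706 genes with at least 20 UMIs in both libraries were at least 4-fold higher in erythroid barcodes than in the other kept barcodes of both libraries (2.97%). These levels are CPM, here taken over the UMIs outside globin, mitochondrial and 7 hormone genes, a total that held 35.8% of erythroid UMIs in the old and 50.8% in the young library. The comparison uses the cells the choice picked out and is a description. Its 2.97% over all genes is the share to set beside each list count against the other barcodes below. The median gene differed by 0.00 on the log2 scale in the old and -0.11 in the young library. In the old library alone 43 of 729 genes were higher (5.90%) and in the young library alone 25 of 1791 (1.40%). Lower genes cannot be read here: 2615 of 16149 genes were at least 4-fold lower in both libraries (16.2%), but 0 had both intervals past that limit.

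**Figure D3:**
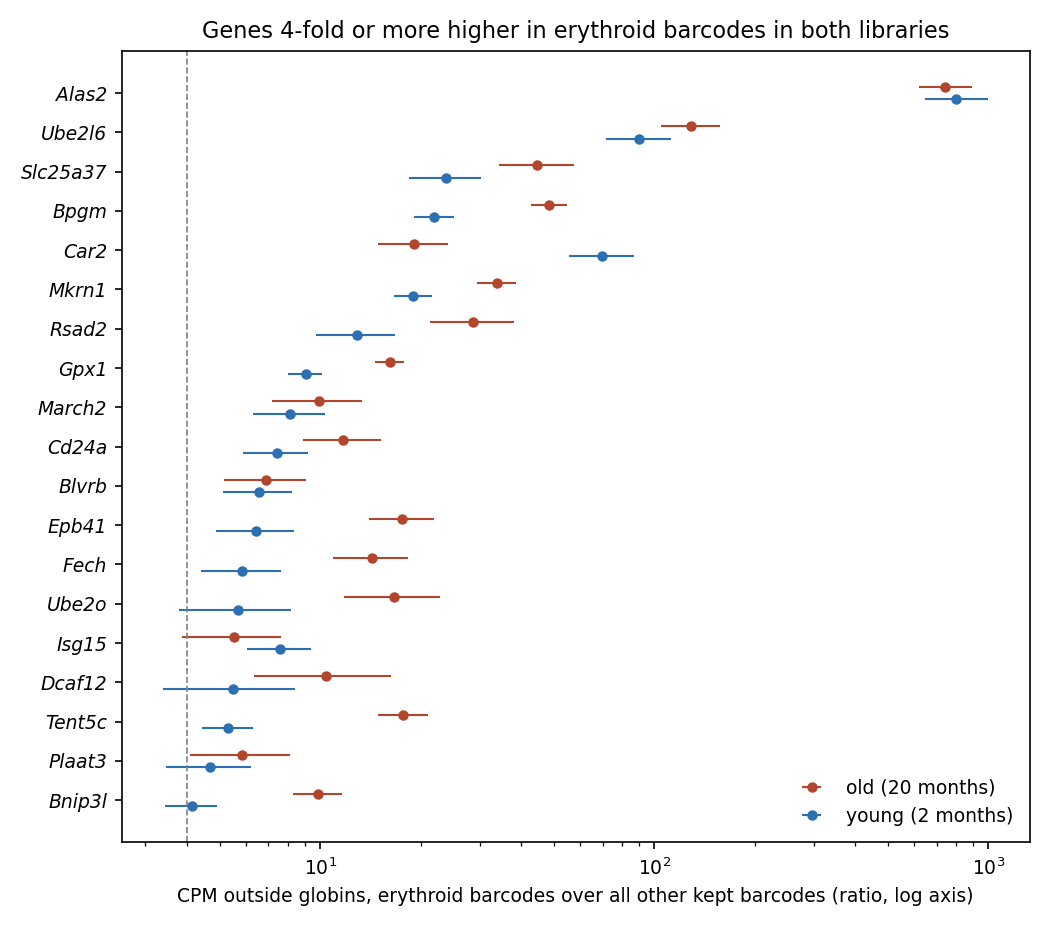
Points give, for 19 of the 21 genes, the CPM of summed erythroid barcodes over that of all other kept barcodes of the same library, on a log axis, with 95% counting intervals, old above young for each gene. The dashed line is the 4-fold limit, and Alas2 stands farthest to the right of those shown, at 741-fold in the old and 802-fold in the young library.

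In haem synthesis, 2 of the 3 genes of that list that could be measured in both libraries were among the 21, and their median was 3.84 on the log2 scale in the old and 2.56 in the young library. Alas2 reached 3681 CPM in old erythroid barcodes, against 4.97 CPM in the other old barcodes, a ratio of 741 (interval 618 to 890). In the young library it reached 1561 CPM in erythroid barcodes, against 1.95 CPM in the others, a ratio of 802 (647 to 1001). Fech, ferrochelatase, which inserts iron into the ring in the final step, had 606 CPM in old erythroid barcodes and 42.5 CPM in the other old ones, and 267 CPM in young erythroid barcodes and 45.7 CPM in the other young ones. Slc25a39, a mitochondrial glutathione carrier, had a ratio of 6.21 in the old and 3.20 in the young library. Urod, an enzyme in the middle of the pathway, stayed at low counts, with 7 UMIs in old and 15 in young erythroid barcodes. Alas1, the enzyme of the same first step in other tissues, had 3 UMIs in old and 9 in young erythroid barcodes and did not differ from the other barcodes beyond counting error, with ratios of 0.749 in the old and 1.06 in the young library.

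Of the iron genes, 1 of 6 measured in both libraries was among the 21. Slc25a37, mitoferrin, which carries iron into mitochondria, had 662 CPM in old erythroid barcodes and 14.9 CPM in the other old ones, a ratio of 44.6. Young erythroid barcodes had 349 CPM and the other young ones 14.7 CPM, a ratio of 23.7. The ferritin chains, which store iron, were near the level of other cells: Fth1 had a ratio of 0.845 in the old and 1.08 in the young library, and Ftl1 1.55 in the old and 1.61 in the young library. The transferrin receptor Tfrc, which erythroblasts use to take up iron, had 5 UMIs in 5 old erythroid barcodes and 5 UMIs in 4 young ones.

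Most membrane genes of the red cell had few UMIs. Epb41, protein 4.1 of the membrane skeleton, had a ratio of 17.6 in the old and 6.44 in the young library. Slc4a1, the band 3 anion exchanger, had 7 UMIs in 6 old and 26 UMIs in 10 young erythroid barcodes, under the 20 UMIs needed in the old library. Of the 25 membrane and skeleton genes, 3 had enough UMIs in both libraries and 2 of these, Epb41 among them, were higher.

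The erythroid transcription factors had few UMIs, with 11 of the 20 listed detected in old and 19 in young erythroid barcodes. Of all genes, 11113 were detected in old and 12958 in young erythroid barcodes. Young ones held more UMIs in the CPM total, 206276 against 105692 in old ones, which favours detection in the young library. The part of depth in the count of detected factors was not tested. Gata1 had 0 UMIs in 51 old and 2 UMIs in 2 of 68 young erythroid barcodes. Klf1, the activator of the adult beta gene, had 0 UMIs in old and 7 UMIs in 3 young ones. Zbtb7a, a repressor of fetal globin genes in humans, had 15 UMIs in 12 old and 31 UMIs in 22 young ones, with ratios to the other barcodes of 1.26 in the old and 1.09 in the young library. Klf3, a relative of Klf1, had 5 UMIs in 4 old and 23 UMIs in 18 young ones, and Lmo2, a partner of GATA1 in its complexes, 5 UMIs in 5 old and 15 UMIs in 8 young ones. Hemgn, a nuclear protein of erythroblasts from the late maturation list, had 0 UMIs in old and 3 UMIs in 3 young ones. None of the 20 factors reached 20 UMIs in both libraries, and Kit, the receptor of progenitors, had 3 UMIs in 1 old and 0 UMIs in young erythroid barcodes. For a gene at 0 of 51 barcodes, the interval for the share of barcodes with a UMI reaches 6.98%, so that a few such barcodes could be missed in the old library.

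The 2 UMIs of Gata1 and 6 of 7 UMIs of Klf1 came from 2 young barcodes, which were singled out after their values were seen. They carried 16 and 14 of the 17 non-globin erythroid markers, where the highest old barcode had 11 and the next highest young one had 11. The medians were 6 in the old and 5.5 in the young library. Klf1 and Gata1 are themselves among the 17, so this choice gave 2 of the markers to each of these 2 barcodes. Their globin shares were 63.7% and 43.6%, their Malat1 shares 0.456% and 0.875%, and their depths 5701 and 5601 UMIs. The first had 1 UMI of Klf1, 1 of Gata1, 6 of Slc4a1, 3 of Rhd and 30 of Car2, and the second had 5, 1, 8, 6 and 15 UMIs of the same genes. Both also had UMIs of Mki67, a proliferation gene, 3 in the first and 2 in the second, while the 51 old barcodes held 0 UMIs and the other 66 young ones 3. Among the 68 young erythroid barcodes, all 9 UMIs of the blood group gene Rhd and all 4 of Ermap were theirs. Barcodes with UMIs of both Klf1 and Gata1 were thus 0 of 51 in the old and 2 of 68 in the young library, numbers too small to compare.

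Of the lists, late maturation held the most of the 21 genes. Of 14 measured in both libraries, 6 were at least 4-fold higher in erythroid barcodes, and the median of the 14 was 3.11 on the log2 scale in the old and 1.68 in the young library. Ube2l6, a conjugating enzyme for ubiquitin and ISG15, had ratios of 129 in the old and 90.2 in the young library, and was detected in 43 of 51 old and 56 of 68 young erythroid barcodes. The ubiquitin ligase gene Mkrn1 had ratios of 33.8 in the old and 19.0 in the young library, and Dcaf12, a receptor subunit of another ubiquitin ligase, 10.4 in the old and 5.49 in the young library. Ube2o, an enzyme that drives the loss of ribosomes in reticulocytes, had ratios of 16.6 in the old and 5.67 in the young library. Bnip3l, the receptor by which reticulocytes clear mitochondria, had ratios of 9.84 in the old and 4.12 in the young library. Tent5c, a poly(A) polymerase, had ratios of 17.7 in the old and 5.29 in the young library. The general ubiquitin gene Ubb was close to other cells, with ratios of 1.27 in the old and 0.982 in the young library.

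In red cell metabolism, 4 of 12 measured genes were among the 21. Bpgm, which makes the 2,3-bisphosphoglycerate that loosens the hold of haemoglobin on oxygen, had 2791 CPM in old erythroid barcodes and 57.5 CPM in the other old ones, a ratio of 48.5 (42.8 to 54.9). Young erythroid barcodes had 1125 CPM and the other young ones 51.2 CPM, a ratio of 22.0 (19.2 to 25.1). Car2, carbonic anhydrase 2, had ratios of 19.1 in the old and 69.8 in the young library, where 45 of its 99 UMIs were in the 2 barcodes with Klf1 and Gata1. Gpx1, which reduces peroxides, had ratios of 16.2 in the old and 9.04 in the young library, and Blvrb, biliverdin reductase B, 6.91 in the old and 6.54 in the young library. The glycolytic genes did not stand out: Aldoa had ratios of 0.987 in the old and 0.934 in the young library, and Gapdh 0.757 in the old and 0.720 in the young library.

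Interferon-induced genes were also found among the 21. Rsad2, the antiviral enzyme viperin, had 53 UMIs in 24 old and 58 UMIs in 15 young erythroid barcodes, with ratios of 28.7 in the old and 12.9 in the young library, and 8 of the old and 20 of the young UMIs lay in 1 barcode each. Isg15, a ubiquitin-like modifier, had 37 UMIs in 8 old and 84 UMIs in 20 young ones, but 28 of the 37 old and 27 of the 84 young UMIs lay in 1 barcode each. These were 2 of 3 measured genes of a list of 28. Stress genes gave no such picture. Of immediate early genes, 0 of 15 measured were called, beside 2.97% of all genes, and their median was -0.45 in both libraries. Of heat shock genes 0 of 13 were called, with medians of -0.09 in the old and -0.14 in the young library. Fos, the best known immediate early gene, had ratios of 0.552 in the old and 0.643 in the young library.

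Between ages, the erythroid genes depended on the scale used. On the CPM outside globins, 59 of 1814 genes with at least 20 UMIs in the higher library were at least 2-fold higher in old than in young erythroid barcodes with an interval that left out 1 (3.25%), and 116 were lower (6.39%). These calls depended on the mix of barcodes: in barcodes with at least 50% globin 14 were higher and 7 lower, with 4 and 0 of them also called in all barcodes, and in Malat1-poor ones 32 were higher and 8 lower, with 16 and 1 also called in all. Of the 21 erythroid genes, 10 were higher and 0 lower. Alas2 stood at 3681 CPM in old and 1561 CPM in young barcodes, a ratio of 2.36 (interval 2.03 to 2.74), and Bpgm at 2791 CPM in old and 1125 CPM in young ones, a ratio of 2.48 (2.08 to 2.96). The median of the 21 was 0.94 on the log2 scale, against -0.09 for all 1814 genes.

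Scaled to the globin UMIs of the same barcodes, the 21 genes had ratios of old over young between 0.374 and 1.24. This scale was chosen after the data were seen. Alas2 had 24.9 UMIs per 10000 globin UMIs in old and 24.3 in young erythroid barcodes, a ratio of 1.02 (interval 0.882 to 1.19). Bpgm had 18.9 in old and 17.5 in young ones, a ratio of 1.08 (0.905 to 1.29). Bnip3l had 9.28 in old and 9.43 in young ones, Ube2l6 8.51 in old and 8.07 in young ones, and Fech 4.10 in old and 4.15 in young ones. On this scale 0 of the 21 genes were called higher and 1 lower, beside 13 higher (0.717%) and 1285 lower (70.8%) of all 1814 genes. The change of scale moved every gene by the same -1.20, so that the 21 genes lay 1.03 above the median of all genes on both scales, and the second scale adds only their distance to globin.

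**Figure D4:**
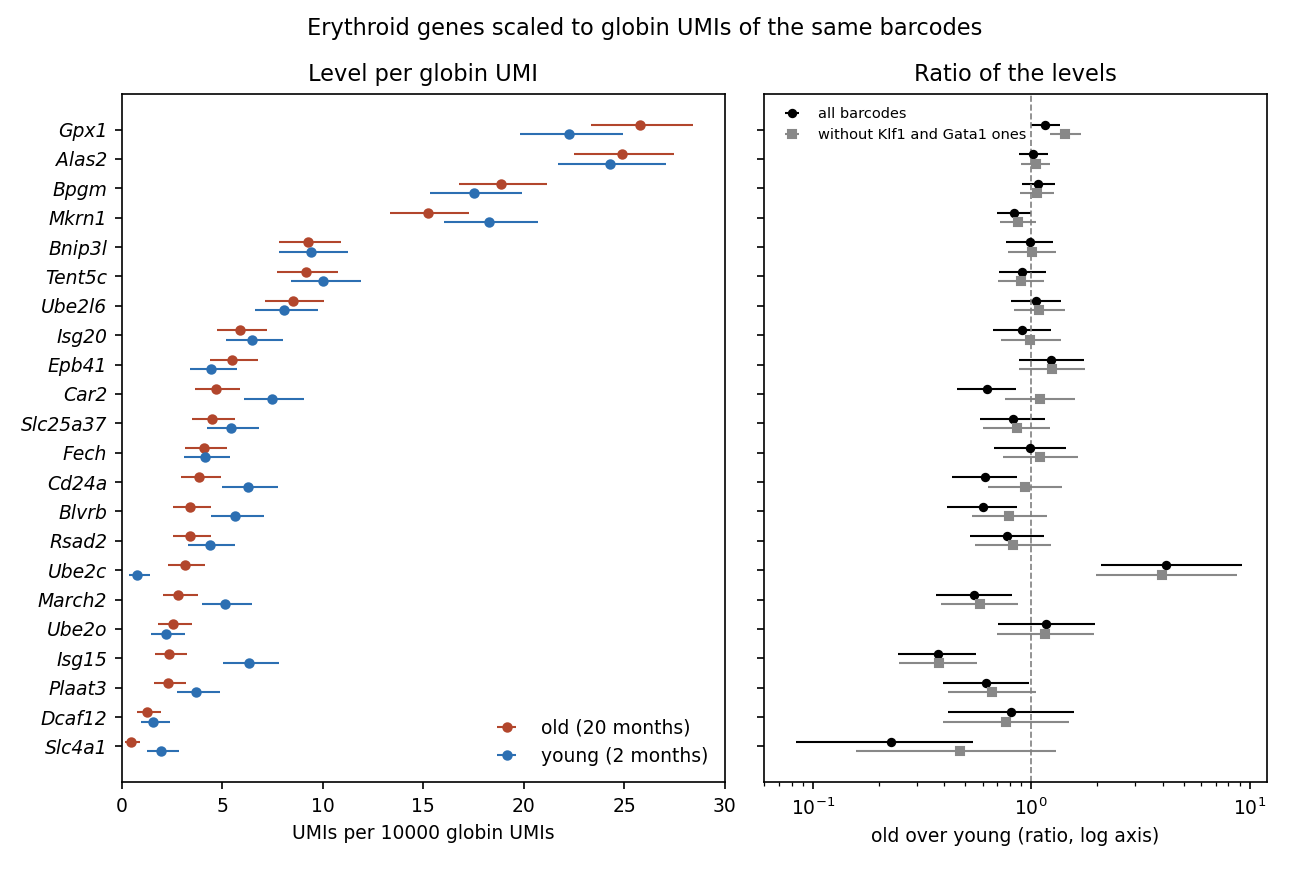
Left, UMIs per 10000 globin UMIs of the same barcodes for 19 of the 21 genes and for Isg20, Slc4a1 and Ube2c, with 95% counting intervals, old above young for each gene. Right, the ratio of old over young on a log axis for all erythroid barcodes (black circles) and without the 2 young barcodes that have Klf1 and Gata1 (grey squares), where Car2 moves to 1.09 from 0.625.

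Several genes had lower values in old barcodes per globin UMI, and their ratios moved with the barcodes included. Car2 had 4.67 UMIs per 10000 globin UMIs in old and 7.47 in young erythroid barcodes, a ratio of 0.625 (interval 0.456 to 0.855), and without the 2 young barcodes with Klf1 and Gata1 the ratio was 1.09 (0.759 to 1.59). Cd24a, a surface protein of immature blood cells, had 3.84 in old and 6.26 in young ones, a ratio of 0.613 (0.432 to 0.865), which became 0.934 (0.633 to 1.38). Blvrb had a ratio of 0.599 (0.414 to 0.864), which became 0.794 (0.533 to 1.18). Without barcodes with markers of another class, Car2 had a ratio of 0.436 (0.303 to 0.620). Gpx1 had a ratio of 1.16 (0.995 to 1.35) in all barcodes, 1.43 (1.21 to 1.69) without the 2 young ones and 0.810 (0.662 to 0.995) in Malat1-poor barcodes. Isg15 had 2.37 in old and 6.34 in young ones, a ratio of 0.374 (0.247 to 0.556), with 28 of its 37 old and 27 of its 84 young UMIs in 1 barcode each. March2, a membrane-bound ubiquitin ligase gene, had a ratio of 0.549 (0.367 to 0.814) in all barcodes and 0.584 (0.387 to 0.875) without the 2 young ones, but 1.35 (0.864 to 2.03) in globin-rich barcodes under 500 genes.

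On the CPM outside globins, 3.25% of all 1814 measured genes were higher and 6.39% lower in old erythroid barcodes, the shares to set beside each list. By list, late maturation genes had 9 of 16 measured genes higher and 0 lower, with a median of 1.07 on the log2 scale. Haem synthesis had 2 higher and 1 lower of 5, with a median of 0.87. Red cell metabolism had 3 higher and 0 lower of 16 with a median of 0.42, the iron genes 1 higher and 0 lower of 8 with a median of 0.45, and the membrane genes 1 higher and 0 lower of 6 with a median of 0.22. Heat shock genes had 0 higher and 2 lower of 14 with a median of -0.60, immediate early genes 0 higher and 1 lower of 18 with a median of -0.35, and interferon genes 0 higher and 1 lower of 5 with a median of -0.21. Per globin UMI, 0 genes of any of these 8 lists were higher, beside 0.717% higher and 70.8% lower of all genes. On that scale 12 heat shock, 16 immediate early, 4 interferon, 4 metabolism, 3 late maturation, 3 iron, 3 membrane and 2 haem synthesis genes were lower.

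Ube2c, a ubiquitin-conjugating enzyme of the anaphase-promoting complex, was among the 10 called genes with the highest ratios of old over young, and its UMIs were spread over many of them. It had 49 UMIs in 19 of 51 old and 10 UMIs in 9 of 68 young erythroid barcodes, or 464 CPM in old and 48.5 CPM in young ones, a ratio of 9.56 (interval 4.79 to 21.2). Per 10000 globin UMIs it had 3.14 in old and 0.754 in young ones, a ratio of 4.16 (2.08 to 9.20). In the other kept barcodes the direction was opposite, with 4.46 CPM in the old and 12.7 CPM in the young library, and in empty droplets it was 4.70 CPM in the old and 14.5 CPM in the young library. In Malat1-poor erythroid barcodes Ube2c had 28 UMIs in old and 4 in young ones, a ratio per globin UMI of 2.80 (0.978 to 11.0). Globin-rich barcodes under 500 genes, which the limits left out, did not show it, with 5 UMIs in the old and 87 in the young library, a ratio per globin UMI of 0.716 (0.227 to 1.74). The other cell cycle genes did not go with it: 1 of 5 measured was higher, Ube2c itself, 0 were lower, and Mki67 had 0 UMIs in old erythroid barcodes.

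Most other genes with the largest age differences rested on 1 barcode or on markers of another cell type. S100a9, a neutrophil gene, had 429 UMIs in old and 0 in young erythroid barcodes, and 424 of the 429 lay in 1 barcode. This barcode had 4 of 8 neutrophil markers, namely S100a9 itself, S100a8, Retnlg and Csf3r. The other markers, Mpo, Elane, Ngp and Camp, had 0 UMIs in old erythroid barcodes. S100a8 had 335 of 340 old UMIs in 1 barcode and 0 UMIs in young ones, and Retnlg, another neutrophil gene, had all of its 51 old UMIs in 1. Counted against 3 UMIs in the young library these are at least 279-fold, 221-fold and 33.2-fold higher, values that describe 1 barcode. Rgs5, a pericyte gene, had 31 UMIs in 1 old barcode and 0 in young ones. Ccl6, S100a6 and Il1b had 20 of 25, 62 of 75 and 62 of 73 of their old UMIs in 1 barcode each, and Chgb, a granule protein of endocrine cells, 384 of 527. Igkc, an immunoglobulin light chain, had 47 UMIs spread over 26 old barcodes and 0 UMIs in young ones, while empty droplets held 3145 CPM of it in the old and 28.9 CPM in the young library.

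Among genes lower in old barcodes, macrophage genes came mainly from a few young ones. Apoe, a lipid carrier made by macrophages and glia, had 155 UMIs in old and 1463 in young erythroid barcodes, 402 of them in 1 barcode, a ratio of 0.207 (interval 0.174 to 0.244). Without barcodes with 3 or more markers of another non-endocrine class its log2 ratio was 2.54, the opposite direction. Ms4a7, a macrophage gene, had 2 UMIs in old barcodes and 69 UMIs in 8 young ones, and Ccl3, a chemokine gene, 5 UMIs in old and 53 in young ones with 32 in 1 barcode. Hes1, a Notch target, had 7 UMIs in old and 70 in young ones with 33 in 1 barcode. Its direction also turned without barcodes with markers of another class, but on at most 7 old UMIs, under the 20 needed. Rlf, a zinc finger gene, was spread more evenly, with 0 UMIs in old barcodes and 22 UMIs over 16 young ones, at least 3.76-fold lower in old ones counted against 3 UMIs. Ints6, a subunit of the Integrator complex, had 1 UMI in old barcodes and 30 UMIs over 20 young ones. Slc24a2, a sodium and calcium exchanger, had 1 UMI in old and 26 over 18 young ones. Sfxn1, a mitochondrial serine carrier, had 1 in old and 22 over 16 young ones, and Snx17, a sorting nexin, 2 in old and 27 over 21 young ones. In barcodes with at least 50% globin, Rlf had 0 UMIs in both libraries and Ints6 0 in old and 2 in young ones. Slc24a2 had 0 there in old and 1 in young ones, Sfxn1 1 and 0, and Snx17 1 and 2. Most young UMIs of these genes thus lay in barcodes with less globin, and the difference could not be measured in globin-rich ones.

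Markers of other cells were counted in every erythroid barcode for 15 other classes. At least 3 markers of an immune, endothelial, stem, pituicyte, fibroblast or mast cell class were found in 8 of 51 old (15.7%) and 20 of 68 young barcodes (29.4%). These had a median globin share of 48.5% in the old and 25.8% in the young library, against 66.4% in the remaining old and 39.3% in the remaining young barcodes. Macrophage or monocyte markers reached 3 in 5 old and 8 young barcodes, stem cell markers in 2 old and 10 young, endothelial markers in 1 old and 2 young, and neutrophil markers in 1 old and 0 young. Somatotroph markers reached 3 in 2 old and 9 young barcodes. Endocrine markers alone did not remove a barcode where those with markers of another class were left out. Summed macrophage markers ranged from 0% to 0.799% of UMIs per old barcode and from 0% to 1.47% per young barcode, with Ccr2 at 0 in both libraries. The platelet markers, the nearest other blood lineage, had 1 UMI in old and 4 in young erythroid barcodes, with Ppbp, Gp9, Gp1bb, Gp5, Treml1 and Tubb1 at 0 in both, and mast cell markers had 0 UMIs in both.

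The share of kept barcodes that were erythroid was 0.521% in the old library (Clopper-Pearson interval 0.388% to 0.685%) and 0.738% in the young library (0.574% to 0.935%), a ratio of 0.706. The ratio moved with the limits. With a minimum of 50% globin it was 2.24, from 38 old and 16 young barcodes. Outside the cluster that resembled the summed empty droplets of both libraries it was 1.86, and among Malat1-poor barcodes 1.49, from 38 old and 24 young ones. With a minimum of 200 genes in place of 500 it was 0.181, from 75 old and 404 young barcodes. Its direction was thus not the same under these limits.

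The gene minimum acted on the 2 libraries differently. Barcodes with at least 2000 UMIs, at least 10% globin and under 500 detected genes numbered 24 in the old and 336 in the young library. Of these, 3 old and 203 young ones had from 300 to under 400 genes, and 0 old and 109 young ones from 200 to under 300. They held more globin than most counted barcodes, with a median of 70.2% of UMIs in the old and 71.8% in the young library, and little Malat1, with medians of 0.145% in the old and 0.0872% in the young library. Their globin split was near that of the counted ones, with Hbb-bs at 84.4% of beta UMIs in the old and 81.0% in the young library. Alas2 stood at 28.3 UMIs per 10000 globin UMIs in the old and 20.9 in the young library, a ratio of 1.35 (interval 1.14 to 1.59). The young erythroid barcodes counted above thus left out most globin-rich, Malat1-poor barcodes of that library, and every comparison between ages above is between the barcodes that passed 500 genes.

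**Figure D5:**
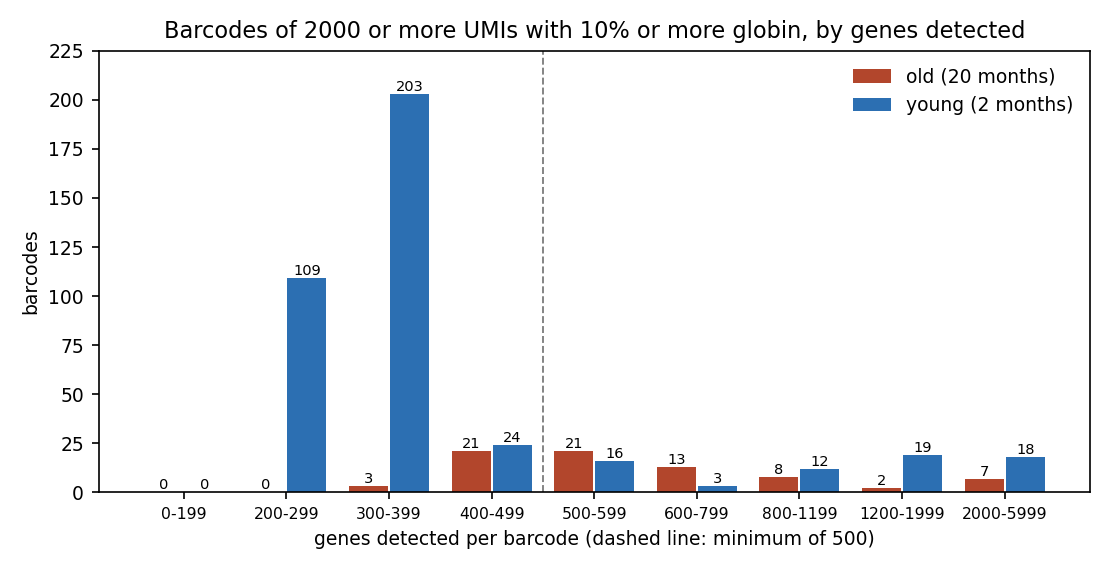
Bars count barcodes with at least 2000 UMIs, at most 15% mitochondrial and at least 10% globin UMIs, by the number of genes detected, old to the left of young in each bin. The dashed line is the minimum of 500 genes, with 24 old and 336 young barcodes below it and 51 old and 68 young ones above it.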

How the data were processed

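The deposited values are UMI counts per gene and barcode in the authors' unfiltered matrices, 1 per age (10x Genomics 3' chemistry). Cell Ranger 6.0.2, FastQC and GRCm39 are named in the submitters' processing notes. Barcodes were filtered as the report states, and no doublets were removed. CPM were computed from summed counts over UMIs outside globin, mitochondrial and 7 hormone genes. Age calls needed at least 2-fold, 20 UMIs in the higher library and an exact conditional Poisson interval that left out 1. Shares have Clopper-Pearson intervals, and 0.5 UMI was added for log2 values. Clustering used scanpy 1.11.5, and other steps numpy 2.4.6, scipy 1.17.1 and pandas 2.3.3 in Python 3.11.15. The calling steps were tested on simulated sums that held counting error only. With no spread between barcodes in them, they could not show the error for genes whose UMIs lie mostly in 1 barcode. Empty droplets were barcodes of 1 to 100 UMIs, except that clusters were compared with those of 10 to 100 UMIs summed over both libraries. The genes named were the 20 with the highest ratio over the other barcodes and the 10 highest and 10 lowest by age above 50 CPM, with list genes and markers, and some of these genes are not reported here. The members and lists were chosen with earlier results of these data known. Upstream sequences came from a RefSeq table of GRCm38.p6. The alternatives tried changed the globin, UMI and gene minimums, the CPM total, the free RNA treatment and the barcodes included.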

Additional observations from a re-analysis of the deposited data

Results flagged for a closer look

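Globin-rich barcodes outside the counted ones were numerous in the young library. With at least 2000 UMIs and at least 10% globin but under 500 detected genes, there were 24 barcodes in the old library and 336 in the young library. They stood out because the limits leave them out of every comparison while they carry the erythroid genes: the median Alas2 count was 7 UMIs per barcode in the old and 4 in the young library. Their median number of genes was 455.5 in the old and 322.5 in the young library, and their median depth 3278.5 UMIs in the old and 2863 in the young library. Gh made a median of 6.04% of their UMIs in the old and 10.5% in the young library. Whether they differ from the counted barcodes for a biological or a technical reason was not tested.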

How the results depend on the processing

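The ratio of the erythroid share, old over young, was 2.24 with a globin minimum of 50%, 0.381 and 1.15 with UMI minimums of 1000 and 3000, 0.181 and 0.354 with gene minimums of 200 and 800, 0.270 with 500 UMIs and 100 genes, 1.86 outside the free RNA cluster and 1.49 among Malat1-poor barcodes. The Hbb-bs share of beta in the old library was 84.9% as a median over barcodes and 84.1% with a globin minimum of 50%. In the young library it was 82.0%, and 81.1%, 79.7% and 81.0% with globin minimums of 20% and 50% and in Malat1-poor barcodes, where beta over alpha was 1.74. The count of genes higher than in other barcodes stayed within 1.5 times its value under the alternatives run. Ratios of single genes over the other barcodes did move under some of them. Genes higher and lower in old barcodes numbered 21 and 415 over all UMIs and 14 and 7 with a globin minimum of 50%. They numbered 25 and 31 with at least 50 UMIs, 142 and 205 with at least 10 UMIs and 13 and 1285 per globin UMI. In Malat1-poor barcodes they were 32 and 8, and in barcodes under 5% hormone UMIs 31 and 50, from only 8 old and 12 young ones. Few young barcodes reached 50% globin, so that the counts from both of these small subsets rest on few barcodes. Lower genes numbered 214 with the empty-droplet profile subtracted and 228 with the profile of 500 to 900 UMIs subtracted. Without barcodes with markers of another non-endocrine class they numbered 70. On the log2 scale, Hes1 was 2.06 with a globin minimum of 50% and 2.84 in Malat1-poor barcodes. Without barcodes with markers of another class Hes1 was 3.95 and Apoe was 2.54. The Hes1 values rest on at most 7 old UMIs, under the 20 needed. The causes were not tested. The per-globin, Malat1, other-class and Klf1 with Gata1 alternatives were chosen after seeing the data. No paired analysis was possible because each age has 1 library.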
